A study of Mus musculus with 9 samples.

Results

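The insulin-like growth factor (IGF) system was examined in mouse embryonic fibroblasts (MEFs) with low or high levels of MYC. Its 10 members were chosen by name from the 19769 genes of the RNA-seq table, with their values in these libraries already known. They were the ligands Igf1 and Igf2, the receptors Igf1r and Igf2r, and the binding proteins Igfbp2, Igfbp3, Igfbp4, Igfbp5, Igfbp6 and Igfbp7. Because the members were chosen with this contrast in view, their values are given as a description, with no test. Both groups were primary MEFs from Myc-Egfp+/+ mice, in which MYC is made as a fusion with green fluorescent protein (GFP) from the endogenous Myc locus. Cells of both groups received 20 µM of the proteasome inhibitor MG-132 for 6 h, were sorted by GFP intensity into low-MYC and high-MYC cells, and were seeded overnight before RNA was taken. Each group had 2 libraries, which the study describes as technical replicates, so the spread between them does not include variation between embryos or sorts. FUBP1 ChIP-seq of MEFs at steady state (1 sample) and TACh-seq, which maps chromatin open to a nuclease, of WT and KOKD MEFs (4 samples with the same read table in all their labels; KOKD denotes Fubp1 knockout with Fubp2 knockdown) were used only for the chromatin around the same genes.

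IGF-I and IGF-II are secreted growth factors that act through IGF1R, a receptor tyrosine kinase whose signal runs through IRS and SHC adaptors to PI3K, AKT and mTOR. IGF2R, the cation-independent mannose 6-phosphate receptor, binds IGF-II and carries it to lysosomes, and it also sorts lysosomal enzymes. The IGF binding proteins hold IGFs in the medium and in the extracellular matrix, lengthen their lifetime and limit or help their access to IGF1R, and proteases release the ligand from them. IGF-II is the prominent ligand of the mouse embryo, its gene is imprinted and shares regulatory elements with H19, and fibroblasts are a well-known source of IGF binding proteins.

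Synthetic ERCC RNA was added in proportion to cell number, so the normalized FPK (fragments per kilobase of transcript divided by a spike-in score) is a level relative to the number of cells. The column totals were 46321 and 48291 in the low-MYC libraries and 102853 and 109090 in the high-MYC libraries. The total was therefore 2.24-fold higher in high-MYC cells by the ratio of the group means, and the median log2 fold change of the 11870 tested genes was 1.03. From the steps between low values, the depth was estimated at about 12200000 and 12600000 fragments for the low-MYC libraries and 12100000 and 11300000 for the high-MYC libraries. Myc itself, the gene behind the sort, had 9.81 and 9.86 normalized FPK in low-MYC cells and 20.3 and 20.5 in high-MYC cells. Its ratio of group means was 2.07, below the 2.24 of the column totals, so Myc mRNA did not stand out from the whole library. Each IGF gene is given by its normalized FPK and by its share of the column total in ppm, in which the difference between the totals is taken out.

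The promoters of 5 members are shown because their genes lie at the ends of the range described here: Igfbp2, Igfbp3 and Igfbp4 had the highest ratios of the set, Igfbp5 had the lowest, and Igf2r carried more E-boxes than the other members. The sequences are from RefSeq on the build GRCm38.p6, where all 10 members were matched, with 14 promoters in all. Each runs 5′ to 3′ on the strand of the gene and ends just before the RefSeq start, except that of Igfbp5, where the last 19 bases were left out because GENCODE places them in an exon. Igfbp2 lies on the plus strand at chr1:72824230-72824479, Igfbp3 on the minus strand at chr11:7213924-7214173, Igfbp4 on the plus strand at chr11:99040994-99041243, Igfbp5 on the minus strand at chr1:72874885-72875115 and Igf2r on the minus strand at chr17:12769707-12769956. Capitals mark matches on either strand to an E-box (CACGTG, the letters bound by MYC with its partner MAX), a TATA box (TATAAA), a GC box (GGGCGG), an AP-1 site (TGACTCA) or a CCAAT box (CCAAT), and neighbouring matches can run together.
Igfbp2: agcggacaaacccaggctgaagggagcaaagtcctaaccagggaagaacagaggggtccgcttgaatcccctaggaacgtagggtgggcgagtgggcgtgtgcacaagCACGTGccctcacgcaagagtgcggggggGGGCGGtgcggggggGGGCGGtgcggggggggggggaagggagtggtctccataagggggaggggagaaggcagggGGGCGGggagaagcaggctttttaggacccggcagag
Igfbp3: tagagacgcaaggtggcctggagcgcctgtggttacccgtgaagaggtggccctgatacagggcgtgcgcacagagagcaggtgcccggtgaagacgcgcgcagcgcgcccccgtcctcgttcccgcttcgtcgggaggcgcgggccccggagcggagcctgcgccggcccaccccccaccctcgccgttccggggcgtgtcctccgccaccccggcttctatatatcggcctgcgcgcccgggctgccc
Igfbp4: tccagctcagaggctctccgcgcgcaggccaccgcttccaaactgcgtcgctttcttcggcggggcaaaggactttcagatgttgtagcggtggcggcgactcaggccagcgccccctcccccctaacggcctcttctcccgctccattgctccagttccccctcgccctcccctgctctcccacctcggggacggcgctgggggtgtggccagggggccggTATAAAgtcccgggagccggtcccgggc
Igfbp5: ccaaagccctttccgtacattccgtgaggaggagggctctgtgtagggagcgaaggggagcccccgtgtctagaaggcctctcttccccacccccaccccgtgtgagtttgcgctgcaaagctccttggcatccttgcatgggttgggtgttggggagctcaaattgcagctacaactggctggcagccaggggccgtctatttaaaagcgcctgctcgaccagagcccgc
Igf2r: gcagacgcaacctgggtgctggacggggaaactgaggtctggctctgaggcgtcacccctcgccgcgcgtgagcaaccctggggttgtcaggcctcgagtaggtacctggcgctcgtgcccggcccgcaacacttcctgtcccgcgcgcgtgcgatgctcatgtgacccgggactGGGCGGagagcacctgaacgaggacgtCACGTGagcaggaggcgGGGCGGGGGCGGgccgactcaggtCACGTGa

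In the 250 bases before the start, the E-box was present once in Igfbp2, 142 bases before the start of its first promoter, and at 2 places in Igf2r, 48 and 7 bases before the start. It was present in 2 of the 14 promoters of the set, and 6.02% of 32851 RefSeq promoters of the same length held it. Igfbp4 had a TATA box 28 bases before the start, and Igfbp6 had those letters on the reverse strand 148 bases before it; 12.4% of all promoters held the TATA box. GC boxes were present in 6 of the 14 promoters, in 1 or more promoters of Igf2, Igf1r, Igf2r, Igfbp2 and Igfbp7, against 32.7% of all promoters. The CCAAT box was present in 3 of the 14 promoters (33.8% of all promoters) and the AP-1 site in 1, the second promoter of Igfbp2 (4.46% of all promoters). The windows of Igfbp3 and Igfbp5 held none of these letters. GC content was 73.2% for Igfbp3, 69.2% for Igfbp4, 67.2% for Igfbp2 (first promoter) and 58.8% for Igfbp5, each over 250 bases, and the median of all promoters was 52.4%. Among members with smaller ratios than these 3, GC content was 77.6% for Igf1r, 74.0% for Igfbp7 and 69.2% for Igf2r. For Igf1 and Igfbp6 it was 52.8% and 49.6%, and for the promoters of Igf2 47.6% to 68.8%. None of the 5 motifs was present in all 3 of the binding proteins with the highest ratios, where only exact matches to the letters were counted. Whether GC content or these motifs bear on the RNA ratio was not tested.

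The 10 genes covered a wide range of levels, and their order differed between the groups mainly in the place of Igfbp5 and Igfbp3. In low-MYC cells Igf2 was highest, followed by Igfbp4, then Igfbp7 and Igfbp6, whose libraries overlapped, and then Igf2r, Igfbp5, Igfbp2, Igfbp3, Igf1r and Igf1. In high-MYC cells Igf2 and Igfbp4 were again first and second and Igf1 was again last. Igfbp6, Igfbp7, Igfbp3 and Igf2r followed, each overlapping its neighbour in this order, then Igfbp2, and then Igfbp5 and Igf1r, which also overlapped. Igfbp3 thus moved from place 8 to place 5 of the 10, and Igfbp5 from place 6 to place 8. These levels are per kilobase of transcript, so they can be compared between genes within a library.

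Of the 10 genes, 9 were higher in both high-MYC libraries than in both low-MYC libraries, and 1, Igfbp5, was lower in both. Across the tested genes, 99.0% had both high-MYC libraries above both low-MYC libraries and 0.0505% (6 genes) had both below, so the 9 genes share the direction of nearly all others. The same 9 genes had a ratio of group means of at least 2, which 88.8% of the tested genes also reached. The genes Igfbp2, Igfbp3 and Igfbp4 (3 of the 10) had a ratio of at least 3, and 5.48% of the tested genes did. The median ratio of the set was 2.53, beside 2.26 for all tested genes, and the median log2 fold change was 1.17, beside 1.03. By share of the column total, 6 genes were higher in both high-MYC libraries, 3 were lower in both and 1 overlapped, whereas 33.9% of the tested genes were higher without overlap and 28.4% were lower without overlap.

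**Figure D1:**
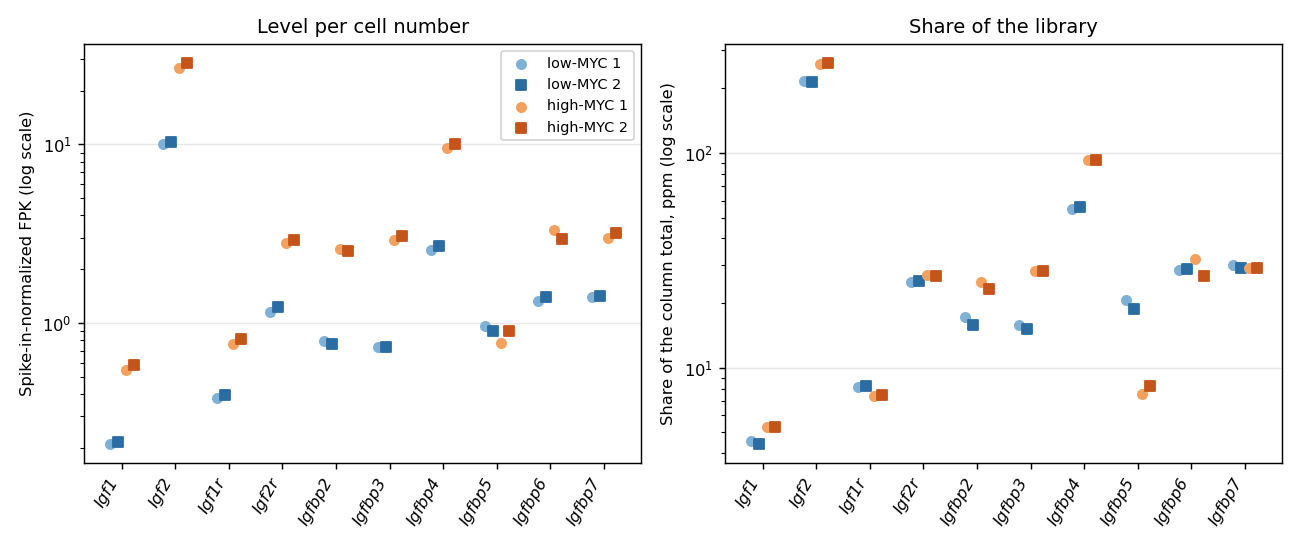
Normalized FPK (left) and share of the column total in ppm (right), both on log axes, of the 10 IGF genes in each low-MYC (blue) and high-MYC (orange) library; each point is 1 library. On the left the high-MYC points stand above the low-MYC points for every gene but Igfbp5, and on the right the points of Igfbp5 drop from 20.7 and 18.7 to 7.53 and 8.22 ppm.

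Igf2, which encodes the main embryonic ligand, was the most abundant of the 10 mRNAs in every library. It had 10.0 and 10.4 normalized FPK in the low-MYC libraries and 26.7 and 28.6 in the high-MYC libraries. The groups did not overlap, and each high-MYC library was between 2.57 and 2.86 times each low-MYC library. The group means were 10.2 ± 0.261 and 27.6 ± 1.37 (SD, n = 2), a ratio of 2.71, and the log2 fold change was 1.43 (SE 0.05). Its share was 216 and 215 ppm in low-MYC cells and 259 and 262 ppm in high-MYC cells, 1.21-fold higher by the means. Igf2 ranked 555 and 556 among all genes in the low-MYC libraries and 489 and 484 in the high-MYC libraries. The gene lies at chr7:142650766-142666816 on the minus strand (mm10, GENCODE M21), where it shares 16048 bp with the coding gene model Gm49394 on the same strand and 7124 bp with the antisense gene Igf2os. Igf2os was listed at 0.0301 and 0.0286 normalized FPK in low-MYC cells and 0.0750 and 0.0829 in high-MYC cells, far below Igf2. The libraries were made with a stranded kit, but whether strand was used in counting is not stated. How reads shared by Igf2 and Igf2os were divided is therefore not known here. Gm49394 is not listed in the RNA-seq table, so it has no values to set beside those of Igf2.

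Igf1, the ligand known from liver and from adult tissues, was the lowest of the 10 genes. Its levels were 0.211 and 0.214 normalized FPK in the low-MYC libraries and 0.547 and 0.579 in the high-MYC libraries, without overlap. The ratio of the means was 2.65, from 0.213 ± 0.00253 to 0.563 ± 0.0222 (SD, n = 2), and the log2 fold change was 1.08 (SE 0.06), which understates the change because 0.1 was added to values this low. Its share was 4.55 and 4.44 ppm in low-MYC cells and 5.32 and 5.30 ppm in high-MYC cells. The gene lies at chr10:87858265-87937042 on the plus strand and shares 5117 bp with the antisense gene Igf1os. The proportion of the ligands to each other barely moved: the Igf2 to Igf1 ratio was 47.4 and 48.4 in low-MYC cells and 48.7 and 49.4 in high-MYC cells. Igf2 made up 51.3% and 51.5% of the summed FPK of the 10 genes in the low-MYC libraries and 50.4% and 51.4% in the high-MYC libraries, which overlapped.

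Igf1r, the signalling receptor, had the smallest ratio of the 9 genes that were higher. Its levels were 0.378 and 0.395 normalized FPK in low-MYC cells and 0.757 and 0.815 in high-MYC cells, which did not overlap. From means of 0.387 ± 0.0125 and 0.786 ± 0.0410 (SD, n = 2) the ratio was 2.03, and the log2 fold change was 0.86 (SE 0.06). Only 14.1% of the tested genes had a lower ratio. Its share was lower in both high-MYC libraries, at 7.36 and 7.47 ppm against 8.16 and 8.19 ppm, so the direction of its difference depends on the scaling. Igf1r lies at chr7:67952827-68233668 on the plus strand and spans 280842 bp, with 21 exons in its single coding transcript.

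Igf2r, which clears IGF-II, was more abundant than Igf1r in every library. It had 1.16 and 1.22 normalized FPK in low-MYC cells and 2.79 and 2.93 in high-MYC cells, without overlap, a ratio of 2.41 between means of 1.19 ± 0.0462 and 2.86 ± 0.0997 (SD, n = 2). Its log2 fold change was 1.20 (SE 0.05), and 72.6% of the tested genes had a lower ratio. Its share was 24.96 and 25.29 ppm in low-MYC cells and 27.1 and 26.9 ppm in high-MYC cells. The Igf2r to Igf1r ratio was 3.06 and 3.09 in the low-MYC libraries and 3.68 and 3.59 in the high-MYC libraries, so the receptors moved by unequal amounts and the groups did not overlap. Igf2r lies at chr17:12682406-12769664 on the minus strand and overlaps the antisense RNA Airn by 28354 bp, but Airn was listed at 0.00454 and 0.00423 normalized FPK in low-MYC cells and 0.0102 and 0.00985 in high-MYC cells.

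Among the binding proteins, Igfbp3, which carries IGFs in serum in complex with the acid-labile subunit, had the highest ratio. Its levels were 0.736 and 0.732 normalized FPK in low-MYC cells and 2.91 and 3.06 in high-MYC cells. The groups were far apart relative to their spread, with means of 0.734 ± 0.0026 and 2.98 ± 0.109 (SD, n = 2), which is 4.06-fold, and a log2 fold change of 1.89 (SE 0.05). A ratio lower than that of Igfbp3 was found for 98.1% of the tested genes. Its share was 15.9 and 15.2 ppm in low-MYC cells and 28.3 and 28.1 ppm in high-MYC cells, 1.81-fold higher. The gene lies at chr11:7206086-7213923 on the minus strand.

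Igfbp4, an inhibitor of IGF action that the protease PAPP-A cleaves, was the most abundant binding protein. Its levels were 2.55 and 2.71 normalized FPK in low-MYC cells and 9.56 and 10.1 in high-MYC cells, which did not overlap. The means were 2.63 ± 0.113 and 9.81 ± 0.355 (SD, n = 2), the ratio was 3.73 and the log2 fold change was 1.86 (SE 0.05). In share it had 55.1 and 56.2 ppm in low-MYC cells and 93.0 and 92.2 ppm in high-MYC cells, and its rank among all genes went from 1954 and 1892 to 1251 and 1232. The gene lies at chr11:99041244-99054392 on the plus strand.

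Igfbp2, a binding protein that is prominent in fetal life, had 0.797 and 0.760 normalized FPK in low-MYC cells and 2.58 and 2.53 in high-MYC cells. The groups did not overlap, and the ratio was 3.28 between means of 0.778 ± 0.0258 and 2.56 ± 0.0379 (SD, n = 2), with a log2 fold change of 1.60 (SE 0.05). Its share was 17.2 and 15.7 ppm in low-MYC cells and 25.1 and 23.2 ppm in high-MYC cells. Ratios lower than those of Igfbp2 and Igfbp4 were found for 96.2% and 97.7% of the tested genes.

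Igfbp5, a binding protein that attaches to extracellular matrix, was the exception of the set. It had 0.958 and 0.903 normalized FPK in low-MYC cells and 0.775 and 0.897 in high-MYC cells. Both high-MYC values were below both low-MYC values, but the second of each group lay close together, and the lowest and highest ratios between single libraries were 0.809 and 0.994. The means were 0.930 ± 0.0389 and 0.836 ± 0.0864 (SD, n = 2), so the difference between the means was about the size of the SD of the high-MYC libraries. The log2 fold change was -0.14 (SE 0.08), and it was -0.05 without high-MYC replicate 1 and -0.24 without high-MYC replicate 2, so the size of this small difference per cell number rests on single libraries. Only 11 of the 11870 tested genes had a lower ratio than the 0.899 of Igfbp5, and 0.126% of the tested genes had a ratio below 1.

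In share of the column total, the difference of Igfbp5 was large relative to the spread. It was 20.7 and 18.7 ppm in low-MYC cells and 7.53 and 8.22 ppm in high-MYC cells, with means of 19.7 ± 1.40 and 7.88 ± 0.488 (SD, n = 2). The share in high-MYC cells was thus 0.400 times that in low-MYC cells, a log2 fold change of -1.19 (SE 0.07). Igfbp5 has a single coding transcript of 6006 bases, which let the fragments behind these values be estimated at 1296 and 1216 in the low-MYC libraries and 468 and 479 in the high-MYC libraries. Among all genes, its rank went from 4244 and 4476 to 7384 and 7066. Igfbp5 lies at chr1:72857932-72874884 on the minus strand, next to Igfbp2 at chr1:72824503-72852474 on the plus strand, so the ends of these neighbours face each other. The Igfbp2 to Igfbp5 ratio was 0.832 and 0.842 in low-MYC cells and 3.33 and 2.82 in high-MYC cells.

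Igfbp6, which binds IGF-II in preference to IGF-I, had levels of 1.32 and 1.40 normalized FPK in low-MYC cells and 3.30 and 2.93 in high-MYC cells. The groups did not overlap in level, with 2.30-fold between the means and a log2 fold change of 1.14 (SE 0.07). They overlapped in share, with 28.5 and 29.0 ppm in low-MYC cells and 32.1 and 26.9 ppm in high-MYC cells, so Igfbp6 differed per cell number about as much as the column total did. The gene lies at chr15:102144362-102149511 on the plus strand.

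Igfbp7, a relative with low affinity for IGFs that is deposited in the matrix, had 1.40 and 1.41 normalized FPK in low-MYC cells and 3.00 and 3.18 in high-MYC cells. Its ratio was 2.20 and its log2 fold change 1.08 (SE 0.05), without overlap in level. In share it was 30.1 and 29.2 ppm in low-MYC cells and 29.2 and 29.1 ppm in high-MYC cells, a log2 fold change of -0.02 (SE 0.03). This change was smaller than its SE, and the log2 fold change of the share of Igf1r was -0.12 (SE 0.03). Both values are descriptions, since the members were not tested. The gene lies at chr5:77349240-77408041 on the minus strand and shares 85 bp with Polr2b, which had a similar ratio of 2.22.

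**Figure D2:**
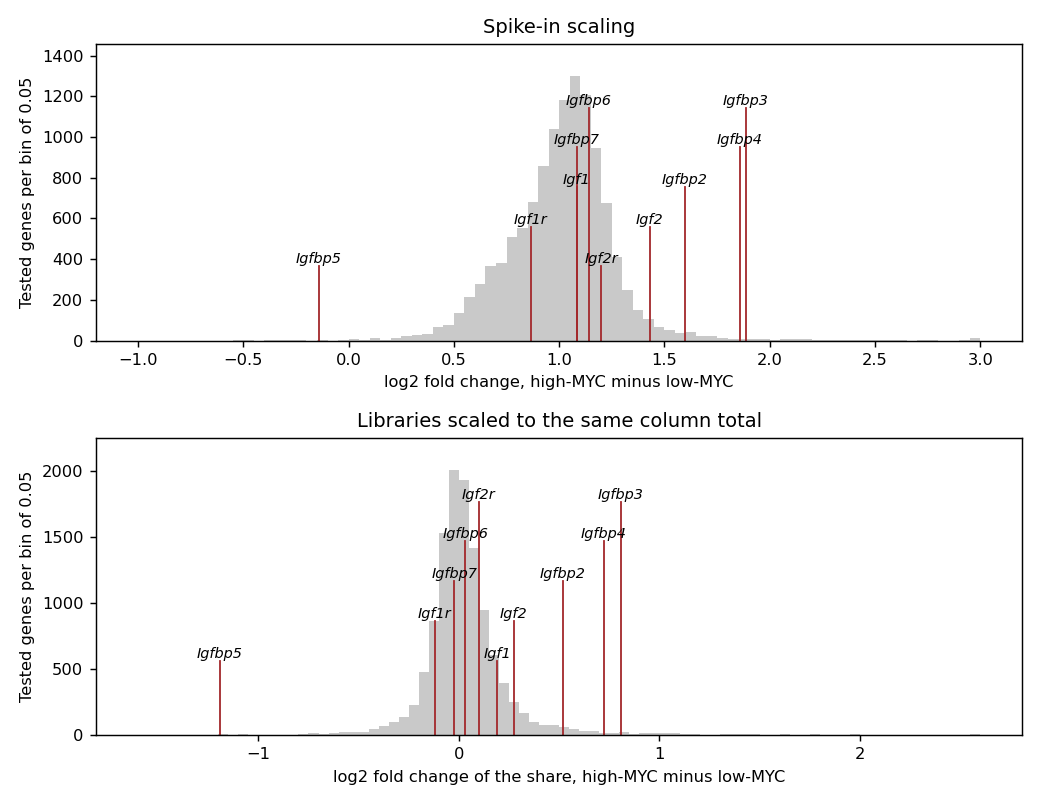
Distribution of the log2 fold change (high-MYC minus low-MYC) over the 11870 tested genes (grey bars, genes per bin of 0.05, with genes beyond an edge in the end bin) and the 10 IGF genes (red lines, whose height only separates the names). The top panel uses the spike-in scaling and the bottom panel libraries scaled to the same column total; Igfbp5 stands at -0.14 and -1.19 and Igfbp3 at 1.89 and 0.81.

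The make-up of the binding protein mRNAs thus differed between the groups while their sum kept pace with Igf2. The 6 binding proteins summed to 7.76 and 7.92 normalized FPK in low-MYC cells and 22.1 and 22.7 in high-MYC cells. The ratio of Igf2 to this sum was 1.29 and 1.31 in low-MYC cells and 1.20 and 1.26 in high-MYC cells. The high-MYC values of this ratio were lower without overlap, at 0.949 times the low-MYC mean. Igfbp4 made up 32.9% and 34.3% of the sum in the low-MYC libraries and 43.2% and 44.4% in the high-MYC libraries. Igfbp3 made up 9.49% and 9.25% in low-MYC cells and 13.1% and 13.5% in high-MYC cells, and Igfbp2 10.3% and 9.60% and then 11.7% and 11.2%. In the other direction, Igfbp5 made up 12.35% and 11.4% of the sum in low-MYC cells and 3.50% and 3.96% in high-MYC cells. Igfbp6 (17.0% and 17.7%, then 14.9% and 12.9%) and Igfbp7 (17.98% and 17.8%, then 13.6% and 14.0%) also took smaller parts in high-MYC cells. None of the 6 parts overlapped between the groups, but such separation is common between these technical duplicates: by share of the column total, 33.9% of the tested genes were higher and 28.4% lower without overlap. The Igfbp4 to Igfbp5 ratio, which needs no scaling between libraries, was 2.67 and 3.00 in low-MYC cells and 12.3 and 11.2 in high-MYC cells, and the Igfbp3 to Igfbp5 ratio was 0.769 and 0.811 and then 3.75 and 3.41.

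**Figure D3:**
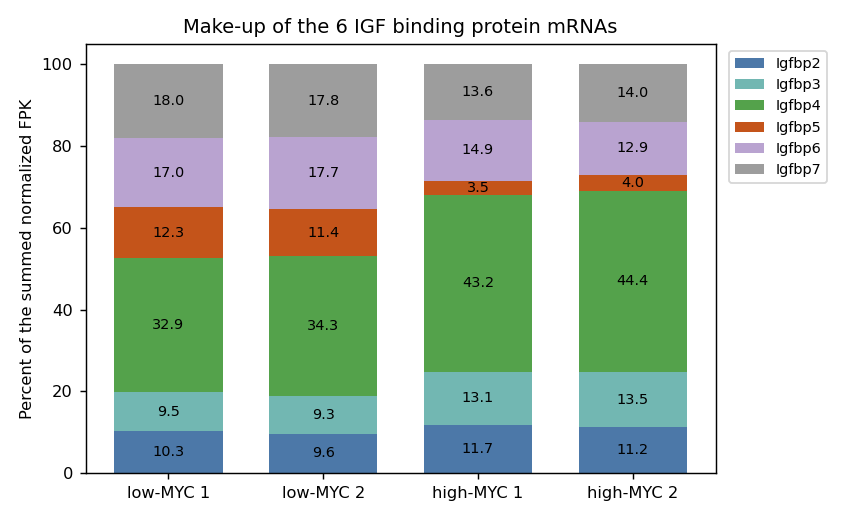
Percent of the summed normalized FPK of the 6 IGF binding proteins taken by each, in each library (1 stacked bar per library, from 0 to 100%). The part of Igfbp5 goes from 12.35% and 11.4% in the low-MYC libraries to 3.50% and 3.96% in the high-MYC libraries, and that of Igfbp4 from 32.9% and 34.3% to 43.2% and 44.4%.

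The other genes of the pathway were read from a list of 63 genes in 7 roles, of which 57 were in the table and 51 were tested with limma over all 11870 genes. Of these 51, 26 were called higher (log2(normalized FPK + 0.1), a difference of 2-fold or more) at a Benjamini-Hochberg adjusted p under 0.01, and 0 were lower. This is 51.0% of the list, and 55.1% of all tested genes were called higher and 0.0% lower by the same rule, so the share of the list is near the background. The count of 0 lower over all genes was also 0 at an unadjusted p under 0.05 with the same fold. With no minimum fold, 51 of 51 were higher and 0 lower, against 97.1% and 0.0253% of all tested genes. When the libraries were scaled to the same column total, 2 of 51 were higher and 0 lower with no minimum fold, against 1.77% and 0.514% of all tested genes, and 1 of 51 was higher by at least 2-fold. The 2-fold count depended on the value added before the logarithm: it was 44 of 51 with 0.01 and 5 of 51 with 1, so the counts by role below hold for 0.1 only. The median log2 fold change of the 51 genes was 1.00, with a range from 0.64 to 2.50.

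Among the hormones, receptors and growth hormone signalling genes, 3 of 6 tested genes were called. Stat5a, a transcription factor downstream of the growth hormone receptor, had 0.224 and 0.209 normalized FPK in low-MYC cells and 0.862 and 0.841 in high-MYC cells, and it rose with a log2 fold change of 1.59 (SE 0.05, limma adjusted p = 1.04e-05). By share of the total, Stat5a was 1.75-fold higher with a limma adjusted p of 0.0125, which missed the threshold. Jak2, the kinase of that receptor and the highest of these genes, rose from 0.438 and 0.452 to 1.09 and 1.11 (log2 fold change 1.14, limma adjusted p = 1.1e-05). Insr, the insulin receptor and a close relative of Igf1r, had the smallest log2 fold change with 0.1 added, from 0.125 and 0.133 to 0.251 and 0.278 (log2 fold change 0.67, limma adjusted p = 0.000156). Its plain ratio was 2.05, above the 1.81 of Ghr, the growth hormone receptor, since the added 0.1 lowers the change of low genes most. The share of Insr in high-MYC cells was 0.914 times that in low-MYC cells.

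Among partners and proteases of the binding proteins, 2 of 4 tested genes were called. Pappa, which encodes the protease PAPP-A that cleaves IGFBP4, was at 0.139 and 0.1595 normalized FPK in low-MYC cells and 0.444 and 0.492 in high-MYC cells (log2 fold change 1.19, limma adjusted p = 2.5e-05). Stc2, an inhibitor of PAPP-A, was at 0.110 and 0.109 and then 0.210 and 0.244 (log2 fold change 0.64, limma adjusted p = 0.000276), and Adam12, a protease reported to cleave binding proteins, had a log2 fold change of 0.96 (limma adjusted p = 2.26e-05). By share of the total, Pappa was 1.40-fold higher with an adjusted p of 0.029 from limma, which missed the threshold, and Stc2 was 0.925 times its low-MYC share.

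Of 9 tested relatives that carry an IGFBP domain, 3 were called, and the list had both the largest difference of the pathway and the only 2 pathway genes past an adjusted p of 0.01 by share with no minimum fold. Ccn5, a matricellular protein, had 0.571 and 0.505 normalized FPK in low-MYC cells and 3.73 and 3.29 in high-MYC cells, a log2 fold change of 2.50 (SE 0.08, limma adjusted p = 1.04e-05), and its share was 2.91-fold higher (limma adjusted p = 0.0096). Esm1, a secreted proteoglycan named here after its values were seen, was at 0.0701 and 0.0807 in low-MYC cells and 0.350 and 0.410 in high-MYC cells, and its share was 2.25-fold higher on the plain ratio (limma adjusted p = 0.00884), but 0.75 on the log2 scale of the fit, under 2-fold. Esm1 reached the mean of 0.1 needed for testing only through its high-MYC libraries. That filter favoured a higher call, so no conclusion is drawn from its adjusted p. Ccn2, a matricellular protein and the most abundant of this list, was at 454.3 and 480.5 and then 770.6 and 850.1, a log2 fold change of 0.79 (SE 0.07, limma adjusted p = 9.95e-05), and its share was 0.774 times that in low-MYC cells.

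H19, the imprinted noncoding RNA of the Igf2 locus, stood out from the 3 Igf2 mRNA-binding proteins, none of which was called at 2-fold. It was at 40.8 and 39.1 normalized FPK in low-MYC cells and 116.7 and 118.2 in high-MYC cells, a log2 fold change of 1.56 (SE 0.05, limma adjusted p = 1.04e-05). By share of the total, H19 was 1.31-fold higher with a limma adjusted p of 0.0269, which missed the threshold. The H19 to Igf2 ratio was 4.08 and 3.77 in low-MYC cells and 4.38 and 4.13 in high-MYC cells, so these neighbours differed by nearly equal amounts, with the groups just apart. Igf2bp3, at 0.116 and 0.121 and then 0.269 and 0.304, had a log2 fold change of 0.82 (limma adjusted p = 7.01e-05) with 0.1 added, and its plain ratio was 2.42, above the 2.04 of Igf2bp1 and the 2.02 of Igf2bp2.

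Downstream of Igf1r, 4 of 7 tested adaptors and 9 of 17 tested genes of PI3K, AKT and mTOR signalling were called. Grb10, an imprinted inhibitor of the receptor, had the largest log2 fold change of the adaptors with 0.1 added (1.24, limma adjusted p = 1.04e-05), although the plain ratio was 2.604 for Grb14 and 2.48 for Irs1 against 2.43 for Grb10. Shc1, the most abundant, had 1.23 (limma adjusted p = 1.04e-05), and Sos1, the exchange factor for RAS, had 0.90 (limma adjusted p = 8.51e-05). In the kinase pathway Pik3r2, a regulatory subunit of PI3K, had a log2 fold change of 1.27 (limma adjusted p = 1.04e-05), and Akt1, the most abundant, had 1.20 (limma adjusted p = 1.04e-05). All 4 genes of mannose 6-phosphate sorting, the machinery that Igf2r belongs to, were called, as were 55.1% of all tested genes, but they lay near the 2-fold line. The log2 fold change was 1.07 for Gnptab, which makes the mannose 6-phosphate tag (limma adjusted p = 1.3e-05), 1.02 for M6pr, the cation-dependent receptor and the most abundant (limma adjusted p = 2.76e-05), and 1.00 for Nagpa, which uncovers the tag (limma adjusted p = 1.21e-05). M6pr fell short of 2-fold without low-MYC replicate 1 (0.98) and without high-MYC replicate 2 (0.94), and Nagpa without low-MYC replicate 2 (0.98) and without high-MYC replicate 1 (0.999).

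**Figure D4:**
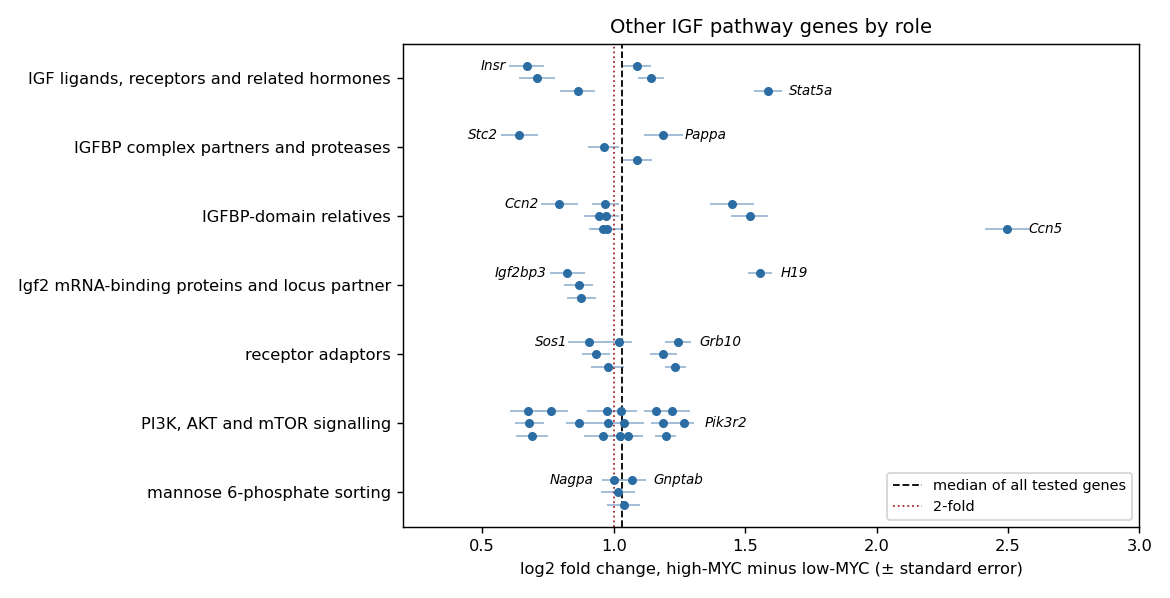
Log2 fold change (high-MYC minus low-MYC, limma on log2(normalized FPK + 0.1), bars show the standard error) of the 51 tested genes of the pathway outside the set, by role; each point is 1 gene and the vertical position within a role only separates points. The genes spread around the median of all tested genes, 1.03 (dashed), and the 2-fold line (dotted), from 0.64 for Stc2 to 2.50 for Ccn5.

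The cells were labelled as fibroblasts, and of 12 fibroblast markers all were in the table, 11 were tested and 10 were called higher. The same rule called 55.1% of all tested genes higher. The 12 markers, led by Vim, had a sum of 338.3 to 343.4 normalized FPK in low-MYC libraries and 809.8 to 827.2 in high-MYC libraries. By share, 3 of the 11 were higher at an adjusted p under 0.01 with no minimum fold (Pdgfra, Dcn and Lum), against 1.77% of all tested genes. On the log2 scale of the fit, only Lum of these was higher by at least 2-fold, although the plain share ratio of Dcn was 2.01. All 20 macrophage markers were in the table and 12 were tested. All 12 were called higher, also by share with no minimum fold, against 55.1% and 1.77% of all tested genes. The mean of 0.1 needed for testing was taken over the 4 libraries. Every tested marker but Cd68 reached it only through the high-MYC libraries. The filter thus favoured higher calls, and no conclusion is drawn from this count. The summed level of the 20 markers ranged from 0.634 to 0.885 in the low-MYC libraries and from 29.2 to 30.6 in the high-MYC libraries, led by Lyz2. Of the 20, 4 (Adgre1, C1qa, Tyrobp and Spi1) were at 0 in a low-MYC library, and only Cd68 had a low-MYC mean of at least 0.1. Macrophages are a known source of IGF-I, and Igf1 is the member with the lowest level, but the part of these cells in the values of Igf1 or of the binding proteins was not tested. In bulk samples, a different number of cells of a type and a different amount of RNA per cell cannot be told apart.

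Among markers of other tissues, Acta1 and Des of skeletal muscle and Col2a1 of cartilage were above most IGF genes in level, and the rest were lower or partly absent from the table. Des had 1.87 and 1.68 normalized FPK in low-MYC cells and 3.56 and 3.56 in high-MYC cells. Of 6 endothelial markers 1 was tested, Kdr, and 0 were called, with sums of 0.190 to 0.192 and then 0.302 to 0.356 normalized FPK. Of 6 epithelial markers 3 were in the table and 0 were tested, with sums of at most 0.0551 in every library (highest Cldn7), and of 6 hepatocyte markers only Afp was listed, with 0.00263 and 0.00336 and then 0.0118 and 0.00912. The skeletal muscle list had 3 of 7 genes in the table, 2 tested and 0 called, with sums of 9.71 to 9.83 and then 14.4 to 14.5, led by Acta1 (7.83 and 8.15, then 10.8 and 10.9), which was lower by share with no minimum fold (log2 fold change -0.71, limma adjusted p = 0.00402). The cartilage list had 5 of 6 genes in the table, 2 tested and 1 called, with sums of 6.51 to 6.69 and then 13.7 to 13.8, led by Col2a1 (5.65 and 5.55, then 11.2 and 11.2). Of the adipocyte list 2 of 6 were in the table, and Fabp4, the 1 tested gene, was called higher (sums of 0.122 to 0.133 and then 0.659 to 0.763). No lymphocyte marker of 6 was in the table.

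Chromatin around the starts of the 10 genes was read from the TACh-seq table of 4881417 reads. No column names a library and the name of the table refers to WT only, so the reads may come from 1 WT library or from several, and WT and KOKD MEFs were not compared. The name of the table also refers to peaks, and whether it holds every read is not known. A start with no listed read may therefore still have had reads. Within 1000 bases of the annotated start, reads were listed at 8 of the 10 genes. The most abundant ligand was not among them: the table used here lists no read within 1000 bases of the start of Igf2, or of any of its RefSeq starts, and the nearest listed read lay 133024 bases away. Likewise no read was listed at Igfbp2, with the nearest 24964 bases away, whereas its neighbour Igfbp5 had 33. H19 and Igf2os, beside Igf2, also had 0. Among 10261 protein-coding genes with a mean of at least 0.1 normalized FPK, 15.3% had no listed read, and among 427 of these at or above the level of Igf2, 55 (12.9%) had none, so a high level with no listed read was not confined to Igf2.

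Of the 8 genes with reads, 6 had fewer than the median expressed gene. Their counts within 1000 bases were 163 for Igfbp7, 147 for Igf1r, 100 for Igfbp6, 88 for Igf1, 79 for Igf2r, 72 for Igfbp4, 56 for Igfbp3 and 33 for Igfbp5. The median of the expressed protein-coding genes was 140, with quartiles of 86 and 216, so 2 of the members, Igfbp7 and Igf1r, lay above the median. The binding proteins with the highest and lowest RNA ratios, Igfbp3 and Igfbp5, lay close together here, with 17.4% and 16.3% of expressed genes having fewer reads. The reads also lay differently around the annotated starts, and these positions depend on the start used. Within 1000 bases of the RefSeq start, Igf1r had 205 reads and Igf1 had 75. At Igf1r the fullest bin of 100 bases began 1100 bases before the annotated start and held 46 reads, and at Igfbp4 it began 1300 bases before it and held 28. At Igf1 it began 700 bases after the annotated start, with 16 reads. At Igfbp7 reads covered the start itself, and at Igfbp6 they stood on both sides, with 21 reads in the bin from 1100 bases before and 26 in the bin from 1200 bases after it.

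**Figure D5:**
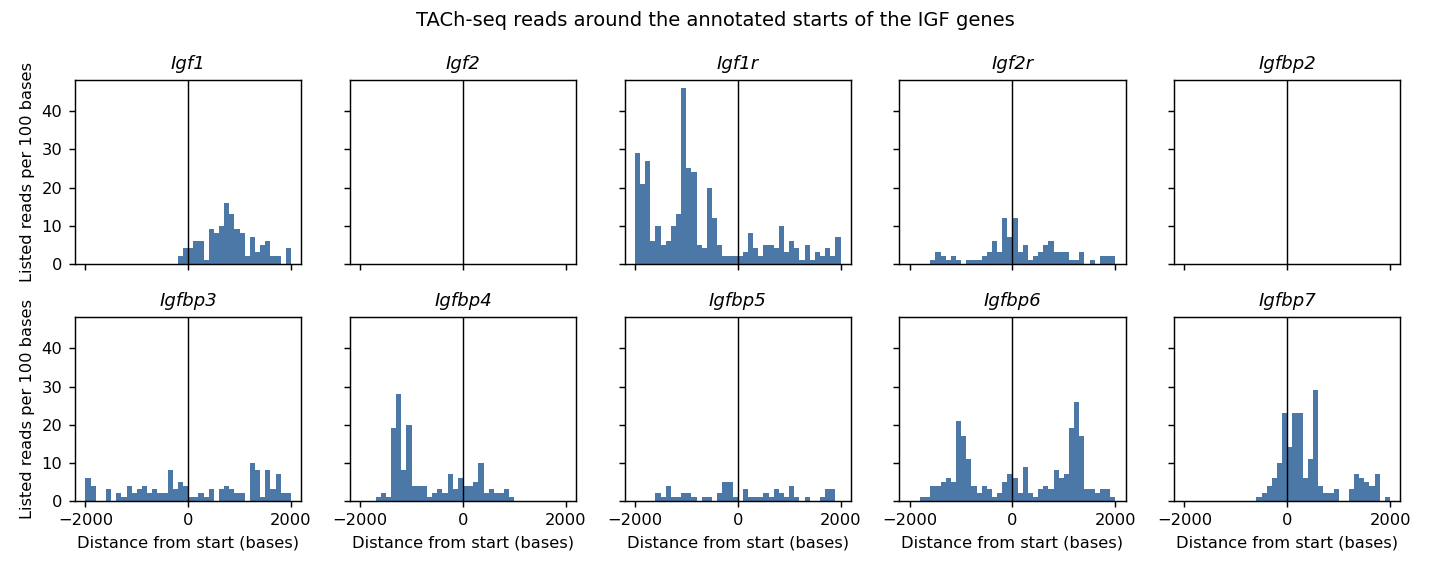
Listed TACh-seq reads per 100 bases against the distance in bases from the annotated start (vertical line, positive in the direction of transcription) for the 10 IGF genes; which libraries the reads come from is not known. The panels of Igf2 and Igfbp2 are empty, and the fullest bin, at Igf1r, holds 46 reads.

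The FUBP1 ChIP-seq peak list used here holds 166 peaks, all on chromosome 15, fewer than the study describes, so it is only part of its peaks and the other chromosomes are not analysed here. Igfbp6 is the member on chromosome 15, and whether the list holds every peak of that chromosome is not known. No listed peak lay over Igfbp6 or within 2000 bases of it. The nearest listed peaks were at chr15:102083201-102087600, 56762 bases before the gene, and chr15:102382601-102388600, 233090 bases after it. Of 408 protein-coding genes of chromosome 15 with a mean of at least 0.1 normalized FPK, 55 (13.5%) had a listed peak over the gene.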

How the data were processed

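RNA was sequenced from 2 low-MYC and 2 high-MYC libraries of MEFs. The authors used TopHat for alignment against mm10 transcripts and the E/M method of Partek for quantification, then scaled FPK to the geometric mean of ERCC spike-ins. The deposited signal values are these spike-in-normalized FPK. Versions of TopHat and Partek are not given in the sources used here. This method can split reads shared by similar or overlapping genes, but how it did so here is not stated.

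The members and all gene lists were chosen with earlier results of these data known. log2(normalized FPK + 0.1) was compared with limma 3.58.1 (lmFit, eBayes with trend) under R 4.3.3. The 11870 genes whose mean reached 0.1 were tested, with Benjamini-Hochberg adjustment. Genes were called at an adjusted p under 0.01 and at least 2-fold. The same fit on libraries scaled to the same column total gave the comparison of shares, at an adjusted p under 0.01 with no minimum fold unless stated. No test is given for members. The replicates are technical, so p-values measure only the spread between these libraries. The value of 1 fragment per library was estimated from the steps between low values, with a tolerance of 2%. Named genes were all members and, in each role, the gene with the highest mean and those with the largest and smallest log2 fold change, plus the highest gene of each marker list and Myc; 1 gene that the rule names is not reported here.

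For TACh-seq and ChIP-seq the authors, per the labels, used Bowtie2 for alignment (mm10) and SICER for peaks. The deposited TACh-seq table gives positions and a mapping score per read (11 to 42) but no library, so WT and KOKD MEFs were not compared; TACh-seq peaks are not analysed here. The ChIP-seq peak list holds positions only and is part of the study's peaks. Starts were taken from GENCODE M21 and motifs from the 250 bases before each RefSeq start. A 1-base excess of gene ends was corrected against the annotation. Alternatives covered the pseudocount, minimum mean, scaling, limma trend, replicate block, thresholds, left-out libraries, read window and mapping score. Python 3.11.15 with pandas 2.3.3, numpy 2.4.6 and matplotlib 3.10.9 was used for the other steps.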

Additional observations from a re-analysis of the deposited data

How the results depend on the processing

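With 2 technical libraries per group, a lone library left after leaving one out was assumed to vary like the other group, and the estimated depth limits low genes such as Igf1 most. The calls depended on the pseudocount, since 0.1 pulls low genes under 2-fold: over all genes 6540 were called higher, against 10076 with 0.01 and 1448 with 1, and in the pathway list 26, against 44 and 5. A minimum mean of 1 left 13 pathway calls among fewer tested genes, and no minimum fold gave 11530 higher and 3 lower (Hmox1 and the near-identical Hspa1a and Hspa1b, named after their values were seen) over all genes and 51 in the list. Scaling to the same column total, or to the same median, left 71 or 68 genes higher, 6 or 7 lower, and 1 in the list under either, because both remove the shift of 1.03 in the median log2 fold change. Both scalings, in that order, turned the sign of the log2 fold change of Igf1r (-0.12 and -0.13), Igfbp7 (-0.023 and -0.038), Insr (-0.086 and -0.096), Stc2 (-0.072 and -0.081), Ccn2 (-0.37 and -0.39), Sos1 (-0.045 and -0.058), M6pr (-0.14 and -0.15) and Nagpa (-0.048 and -0.062), and took Igfbp5 to -1.19 and -1.21. With the same column total, the changes of Igfbp7, Sos1 and Nagpa were smaller than their standard errors, so no direction is read from them. Leaving out each library gave 5683 to 7374 genes higher, 0 to 1 lower (1 without low-MYC replicate 1 and 1 without high-MYC replicate 1), 20 to 32 in the list, and -0.24 to -0.05 for Igfbp5. The deviations of same-numbered libraries had a correlation of 0.081 over genes. An offset shared by all genes drops out of this value, so it does not settle whether the numbers pair the libraries. With the replicate block 6556 genes and 26 of the list were called higher and 0 lower. Of the 10 members, 9 had a log2 fold change above 0 under the pseudocounts, the limma fit without trend, the block and each left-out library. A window of 500 bases or a mapping score of at least 30 left 8 members with TACh-seq reads.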
